A study of Drosophila melanogaster with 2 samples.

Results

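The 10 genes described here were grouped by name as genes of ribosome production in the nucleolus: Ns1, Ns2, Ns3, Fib, nop5, Nopp140, Nop60B, l(3)72Dn, Mat89Ba and Bka. They were taken by name, 10 of the 13968 protein-coding genes of the Ensembl annotation of Drosophila melanogaster (BDGP6), and each was searched for chromatin-bound rib within 2000 bp of its transcription start. Whole embryos aged 0 to 24 h, of the strain rib-GFP with an inserted transgene that makes a rib-eGFP fusion, were used for chromatin immunoprecipitation and sequencing (ChIP-seq), in 1 group of 2 biological replicates. The antibody entry of the labels names rib, whereas their description names an antibody to GFP, a green fluorescent tag. Sonicated fragments measured 200 to 800 bp. Data of a control experiment that the labels name were not read here. Per the file descriptions the authors used a control in deriving the peak lists, so any control background enters only through their values. There is no second group to compare with. Whole embryos mix all cell types, so binding in few cells and weak binding in many cannot be told apart.

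Ribosomes are assembled in the nucleolus, where the long precursor of ribosomal RNA is transcribed, cut and modified. Small nucleolar ribonucleoproteins (snoRNPs) guide the modification: the box C/D kind adds methyl groups and the box H/ACA kind makes pseudouridine. The small subunit processome folds and cuts the precursor of the small subunit, and GTPases of the nucleostemin family act late in the making and export of the large subunit. The protein that was tagged, ribbon (rib), belongs to the BTB family of nuclear factors and is known for its part in shaping the embryonic salivary gland and trachea.

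An E-box, CACGTG, the palindrome bound by Myc with its partner Max, stood next to the transcription start of every one of the 10 genes. In 9 of them it lay between 250 bp upstream and 50 bp downstream of the start, and in Ns2 it lay just past that window, at bases 51 to 56 after the start. From −250 to +100 bp, a window set after the sites were seen, it was in all 10, against 4.67% of all protein-coding genes. The sites below are shown because this short word is the sequence feature that the genes share. Each line gives 26 bases of RefSeq Release 6 sequence (dm6) on the gene's own strand, 5′ to 3′, with the E-box in capitals.
Ns1: agactattttCACGTGttcttgtttt
Ns3: gcaaacattgCACGTGtttttgacaa
nop5: accgaaggcaCACGTGcttgcacttc
Nopp140: aagtagaaaaCACGTGtgagtgcgca
l(3)72Dn: cttaggcacaCACGTGcatctccaga
Mat89Ba: gcatctgcaaCACGTGcgagtttagc
Bka: atacttaccaCACGTGtgccactttt
The stretches lie at chr3R:17072638-17072663 for Ns1, chrX:1464164-1464189 for Ns3 and chr2L:6918735-6918760 for nop5. Those of Nopp140 and l(3)72Dn lie at chr3L:21832782-21832807 and chr3L:16228693-16228718, that of Mat89Ba at chr3R:16272369-16272394 and that of Bka at chr2L:9895311-9895336. The strand is minus for Ns1, Ns3, nop5, l(3)72Dn and Mat89Ba, and plus for Nopp140 and Bka. The annotation places all but that of nop5 in the 5′ UTR of the gene, and that of nop5 in an intron of x16.

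Counted from the start base, the E-box began 18 bp downstream in Nopp140, 22 in Ns1, 29 in l(3)72Dn, 30 in Fib, 31 in Mat89Ba, 34 in Bka, 41 in Ns3 and 51 in Ns2. In nop5 it began 7 bp upstream of the start. Nop60B held a pair, one from 13 to 8 bp upstream and one from 22 to 27 bp downstream. In that window from −250 to +50 bp the word was present in 9 of the 10 genes, in 36 of 64 further ribosome biogenesis genes (56.2%) and in 591 of all 13968 protein-coding genes (4.23%), counting from the outermost start of each gene. Among the 10269 genes with a single annotated start, as all 10 have, the share was 4.41%. From the start to 100 bp downstream it was 9 of 10, with nop5 the exception, against 51.6% of the further genes and 1.83% of all genes. In the 250 bp upstream alone it was 2 of 10, nop5 and Nop60B, against 7.81% and 2.86%. The upstream window and the windows around summits were looked at first, and the windows that reach into the transcript were added after the E-boxes had been seen there.

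The other 7 words searched on both strands between −250 and +50 bp had no such spread over the genes. GAGAG, the GAGA element, was in 5 of 10 starts against 29.8% of all starts, and TATAAA, the TATA box, was in 4 against 45.9%. CGATA, the core bound by BEAF-32, was in 4 against 47.4%, and TATCGATA, the DNA replication-related element that contains it, was in 1 (Nop60B) against 9.36%. CAGCTG was in 1 (Bka) against 17.7%. GGTCACACT was in none of the 10 against 6.04%, and CAGGTAG, the Zelda site, in none against 1.64%. These counts are descriptions, and a match is not a bound site.

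Chromatin-bound rib was found at the starts of some of the genes and not at others. Of the 10 genes, 5 had a peak summit of the series list within 2000 bp of the start (Ns2, nop5, Nopp140, Nop60B and l(3)72Dn), against 26.2% of all protein-coding genes. Within 500 bp it was 4 of 10, all of those but nop5, against 18.2% of all genes. The series list holds 4606 peaks that passed an irreproducible discovery rate (IDR, a measure of how poorly a peak's rank repeats between data sets) of 0.01. The signal of a peak is the strength that the authors' peak caller gave it, on a scale that is not stated, with a median of 93.2 over the 4606 peaks. The strongest peak within 2000 bp had a median signal of 121 over the 5 genes that have one and 107 over the 3656 genes of the genome that have one, and 3 of the 5 lay above that median of all genes. Within 500 bp the medians were 147 over 4 genes and 106 over 2547 genes. Replicate 1 alone had 3082 peaks past the threshold and replicate 2 had 2181. Within 500 bp, replicate 1 had peaks at 2 of the 10 genes against 13.0% of all genes, replicate 2 at 3 against 10.7% and the conservative list at 3 against 16.5%. Within 2000 bp each of the 3 lists had peaks at 3 of the 10, though not at the same 3, against 19.0% (replicate 1), 15.6% (replicate 2) and 23.8% (conservative list). Of genes with a single annotated start, as all 10 have, 20.3% had a summit within 2000 bp and 13.1% within 500 bp. Read counts and depth are unknown.

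E-box and bound rib did not sort the genes the same way. Of the 9 genes with the word between −250 and +50 bp, 3 had a summit within 500 bp (Nopp140, Nop60B and l(3)72Dn) and 6 had none. The single gene without it in that window, Ns2, holds it just past the edge, at bases 51 to 56, and had the strongest peak of the 10. Of all genes with the E-box there, 22.0% had a summit within 500 bp (130 of 591), against 18.1% of genes without it (2417 of 13377). Among the 64 further ribosome biogenesis genes it was 27.8% of those with the E-box (10 of 36) and 28.6% of those without it (8 of 28). Within 50 bp of the summit the word was present at 1 of the 5 peaks, that of Nop60B, against 1.67% of 2395 promoter peaks. Within 100 bp it was present at 2 of the 5, those of Nop60B and Nopp140, against 2.88%. Promoter peaks have a summit within 500 bp of a start, which the nop5 peak among the 5, 844 bp upstream, does not. These shares were not tested.

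**Figure D1:**
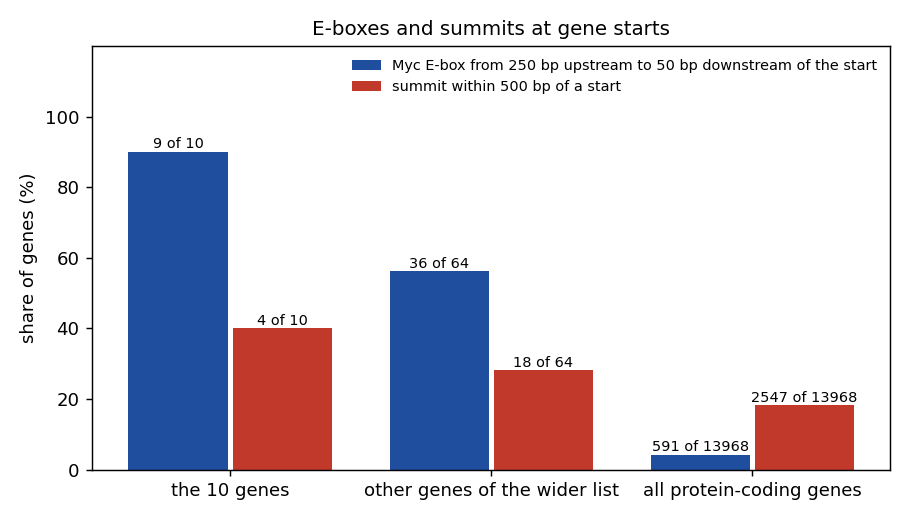
Share of genes, in percent, that hold the Myc E-box around the start (blue) or a series summit within 500 bp of a start (red), for the 10 genes, 64 further genes of the wider ribosome biogenesis list and all 13968 protein-coding genes. The E-box was found in 9 of 10, 36 of 64 (56.2%) and 4.23% of the genes, and a summit at 4 of 10, 18 of 64 (28.1%) and 18.2%.

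The position of every ranked region around the 10 starts shows how the bound genes differ from the rest. Ranked lists hold all candidate regions, also those with a poor IDR, and 75.9% of all genes have one within 500 bp, so a region there is no call. Red points mark the 5 peaks past the threshold, and 4 of them lie within 200 bp of their start. Of the genes with no peak in the window, Mat89Ba had the nearest, 2465 bp upstream, whereas nop5 with its summit 844 bp upstream was the outermost gene inside it.

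**Figure D2:**
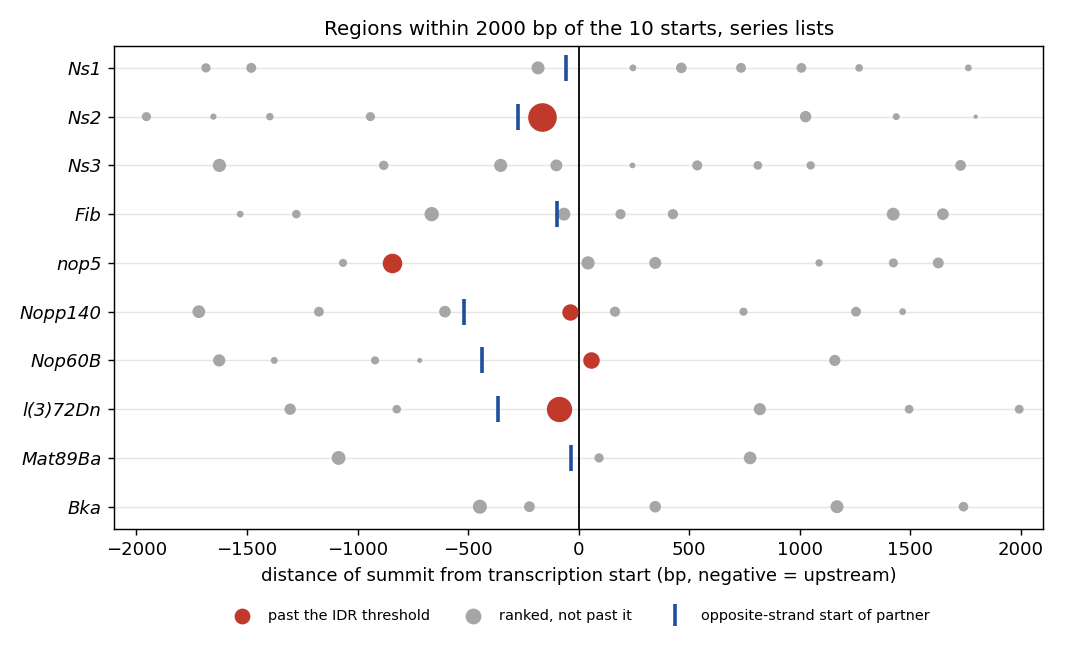
Each row is one of the 10 genes, with distance from the transcription start in bp on the x axis (negative is upstream), points for ranked regions of the series with area proportional to signal, and blue ticks for the start of an opposite-strand neighbour. Red points, past the IDR threshold, occur at Ns2, nop5, Nopp140, Nop60B and l(3)72Dn, with the largest at Ns2 (276) and l(3)72Dn (211).

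Among the nucleostemin GTPases, Ns2 stood out by its signal. Ns2, whose relatives act in export of the large subunit precursor, had a series signal of 276 with its summit 165 bp upstream of the start, which ranked 197 of 4606 peaks. In the single replicates the region over this peak had a signal of 147 in replicate 1, rank 249, and 118 in replicate 2, rank 251. Both passed the threshold of their own list, the series IDR was 1.0e-05, the lowest value the lists hold, and the peak was in the conservative list too. It spans chr2R:17568560-17568744 between genes, and its summit was nearer to another start, 111 bp from that of POSH, a signalling scaffold gene on the opposite strand. The lists do not say which of these genes the peak serves.

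Ns1, needed for release of the large subunit from the nucleolus, had no peak within 2000 bp. Its best region, meaning the one with the lowest IDR in the ranked list, lay 184 bp upstream with a signal of 48.1 and an IDR of 0.0946. The nearest peak, with a signal of 124, lay 5476 bp upstream in an intron of Keap1. Ns3, whose yeast counterpart acts on the large subunit in the cytoplasm and not in the nucleolus, had its best region 1625 bp upstream with a signal of 49.9 and an IDR of 0.0715. Its nearest peak was 19138 bp upstream, in the 5′ UTR of sta. Of these 3 nucleostemins, Ns2 was thus the one with a peak, and a further family member outside the 10, Ns4, had a summit 27 bp upstream of its start with a signal of 84.6.

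The catalytic subunits of the snoRNPs differed too. Nop60B, the pseudouridine synthase of box H/ACA particles, had a peak with a signal of 83.2, rank 2867, at chr2R:24174744-24175123, its summit 57 bp downstream of the start in the 5′ UTR. Of the 4 genes with a summit within 500 bp, 3 had it upstream (75.0%), near the 69.3% of all such genes, and Nop60B had it downstream. The replicates had signals of 50.7 (replicate 1, rank 3258) and 31.8 (replicate 2, rank 4728), and neither passed the threshold of its own list, although the series and conservative lists both hold the peak. Fib, the methyltransferase of box C/D particles (fibrillarin), at chr2R:23072909-23074725 on the minus strand, had no peak within 2000 bp. Its best region, 665 bp upstream with a signal of 60.3, had an IDR of 0.0171 and came closest to the threshold among the 5 genes without a peak. The nearest peak was 31418 bp from the start, in an intron of twi.

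The core box C/D protein gene nop5, the fly counterpart of yeast Nop58, lies inside the annotated span of x16, a splicing factor gene, on the same strand. Its peak had a signal of 121, rank 1361, 844 bp upstream at chr2L:6919397-6919776, within coding sequence of x16. The replicates disagreed there: the signal was 91.5 in replicate 1, rank 806, and 24.1 in replicate 2, rank 10621. Only replicate 1 passed, and the conservative list lacks the peak. The log2 ratio of replicate 1 over replicate 2 was 1.93, above the 95th percentile of 1.57 over 4579 peaks, whose median was 0.48 and SD 0.63. A further peak of 148 lay 2540 bp upstream of nop5, where it sits 23 bp from a start of Hrb27C.

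Nopp140, the chaperone that accompanies snoRNPs in the nucleolus and Cajal bodies, had a signal of 81.4, rank 3022, with the summit 41 bp upstream of its start. Here replicate 2 carried the call: its signal was 42.0 (rank 2351, IDR 0.00980), whereas replicate 1 had 34.1 (rank 8977, IDR 0.139). The conservative list lacks this peak. The log2 ratio of replicate 1 over replicate 2 was −0.30, above the 5th percentile of −0.51. The line gives the bases within 50 bp of the summit, cut off at the base before the start and shown as the sequence under the peak; none of the 8 words occurs in it, and no letters are capitalised. It is RefSeq Release 6 (dm6), chr3L:21832683-21832773, plus strand.
Nopp140: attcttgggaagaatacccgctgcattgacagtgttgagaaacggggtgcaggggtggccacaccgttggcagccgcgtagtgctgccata

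Of the small subunit processome, l(3)72Dn, annotated in RefSeq as UTP4, an early-binding component, had the second peak by strength. Its series signal was 211, rank 378, 89 bp upstream of the start at chr3L:16228636-16229015, with an IDR of 1.1e-05. The replicates gave 110 (replicate 1, rank 508, 76 bp upstream) and 104 (replicate 2, rank 340, 60 bp upstream), both past the threshold, with a log2 ratio of 0.08. The conservative list holds it. The summit was nearer to this start than to that of Tmx3, 274 bp away on the opposite strand. The line gives the sequence under the peak, within 50 bp on either side of the summit (RefSeq Release 6, dm6, chr3L:16228776-16228876, minus strand), with TATAAA, in both orientations overlapping, in capitals.
l(3)72Dn: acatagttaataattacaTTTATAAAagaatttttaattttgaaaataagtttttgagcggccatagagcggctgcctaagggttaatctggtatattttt

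Mat89Ba, the fly NOL6 and also a processome component, had no peak within 2000 bp and the weakest region of the 10 at its start. The best IDR there was 0.0235, at a region 1086 bp upstream with a signal of 55.6. It shares a promoter with gish, a casein kinase gene whose nearest start lies 37 bp away. The peak 2465 bp upstream, with a signal of 64.1, lies in the 5′ UTR of gish. The strongest peak at a gish start, with a signal of 434, belongs to another of its starts. Bka, for which the reference used here annotates no role, had its best region 447 bp upstream with a signal of 57.5 and an IDR of 0.0400. The nearest peak to Bka, with a signal of 79.1, lay 4471 bp upstream and 44 bp from the start of CG34183 and 69 bp from that of CG4537.

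Replicate values at the peaks of the 5 genes fall into separate kinds. Ns2 and l(3)72Dn passed in both replicates, nop5 in replicate 1, Nopp140 in replicate 2 and Nop60B in neither. With 2 replicates, ratios were read against all peaks: those of Ns2 (0.32), l(3)72Dn (0.08), Nop60B (0.67) and Nopp140 (−0.30) lay within the 5th to 95th percentile, and that of nop5 did not.

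**Figure D3:**
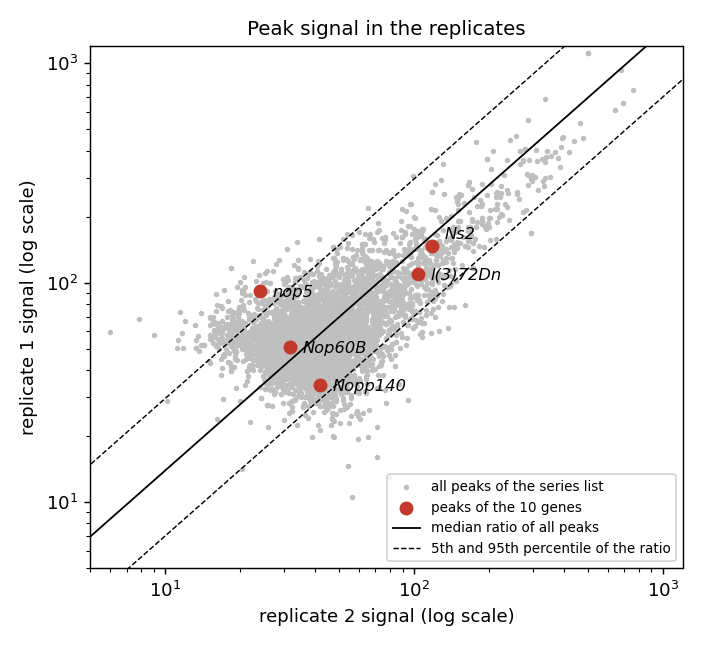
Signal of the region over each series peak in replicate 1 (y axis) and replicate 2 (x axis), both on log scales in the peak caller's unit, with the 5 peaks of the genes in red and all peaks in grey; the solid line is the median ratio and dashed lines its 5th and 95th percentiles. nop5 (91.5 in replicate 1, 24.1 in replicate 2) lies above the upper dashed line and the other 4 lie between the lines.

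The strongest ranked region within 500 bp of each start was taken next, whether past the threshold or not. In the series list, 9 of the 10 genes lay above the median of the genes that have such a region. The median signal of the 10 was 53.8, against 44.4 over the 75.9% of all genes that have one. In replicate 1 it was 32.9 against 28.0 over genes with a region, with 6 of 10 above. In replicate 2 it was 26.8 against 20.5, with 7 of 10 above. Mat89Ba, with no region there in replicate 2, counted as 0 among the 10. The percentiles in the series list are over all genes, counting a gene with no region as 0. Ns2 was at the 98.8th percentile and l(3)72Dn at the 97.8th, Nop60B at the 85.4th and Nopp140 at the 84.7th. Below these 4 came Bka at the 73.1st, nop5 at the 67.6th, Ns3 at the 66.8th, Ns1 at the 65.7th and Fib at the 64.7th, and Mat89Ba was last at the 34.6th. The 90th percentile of all genes was exceeded by Ns2 and l(3)72Dn alone among the 10, in both replicates.

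**Figure D4:**
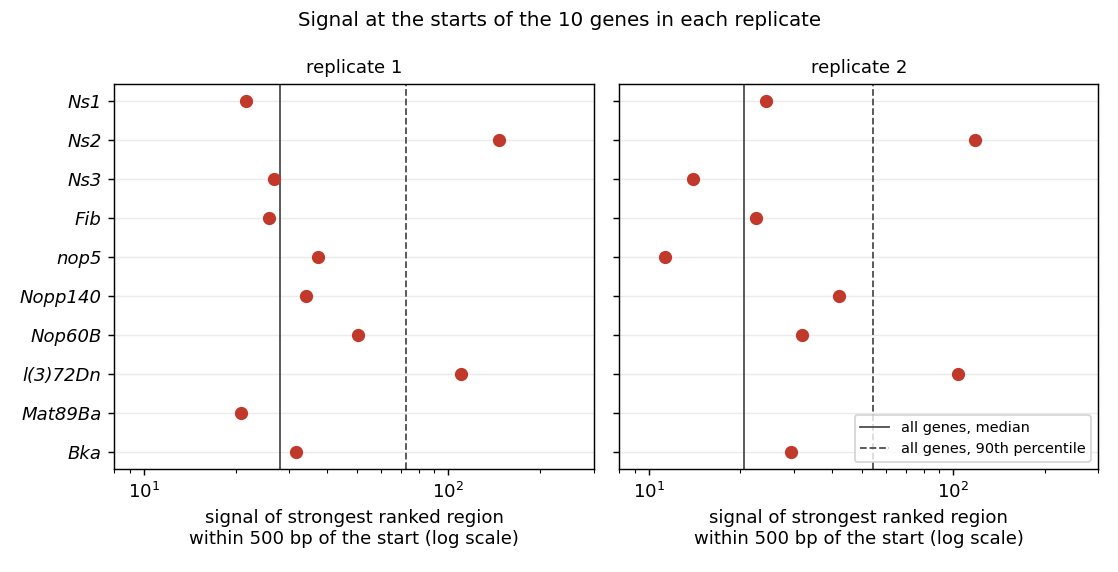
Signal (log scale, peak caller's unit) of the strongest ranked region within 500 bp of each of the 10 starts in replicate 1 (left) and replicate 2 (right). Lines, labelled all genes, mark the median and 90th percentile of the protein-coding genes that have such a region (74.0% in replicate 1, 74.4% in replicate 2). Ns2 (147 in replicate 1, 118 in replicate 2) and l(3)72Dn (110 and 104) lie to the right of the 90th percentile in both, and Mat89Ba has no point in replicate 2, where it had no region within 500 bp.

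The calls within 500 bp fell at genes with a neighbouring start. An opposite-strand start lies up to 1000 bp upstream of 7 of the 10 genes, against 36.2% of all genes, and all 4 genes with a summit within 500 bp are among these 7. Of genes with such a neighbour, 28.7% had a summit within 500 bp, against 12.3% of genes without one, and within 2000 bp the shares were 39.5% and 18.6%. With a single annotated start besides, they were 23.5% within 500 bp and 33.6% within 2000 bp. Of the 10 genes, 4 of the 7 with a neighbour and 0 of the 3 without one (Ns3, nop5 and Bka) had a summit within 500 bp. Within 2000 bp it was 4 of the 7 and 1 of the 3, nop5. The neighbours are POSH for Ns2 (276 bp away), CG7148 for Nopp140 (521 bp), mRpS17 for Nop60B (436 bp) and Tmx3 for l(3)72Dn (363 bp). Those of the 3 genes without a summit are mRpS11 for Ns1 (57 bp), CG3085 for Fib (98 bp) and gish for Mat89Ba (37 bp). mRpS11 and mRpS17 encode proteins of the mitochondrial ribosome. The part of the shared promoters in the counts was not tested beyond these values.

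A wider list of ribosome biogenesis genes was set beside the 10. It held 105 symbols, of which 19 had no match in the annotation and the rest fell on 74 genes, the 10 among them. Of the 74 genes, 22 (29.7%) had a summit within 500 bp, and without the 10 it was 18 of 64 (28.1%), against 18.2% of all genes. When each peak was given to its nearest start alone it was 10 of 74 (13.5%), against 14.6% of all genes. Their signals ran between 56.3 (Rrp6, an exosome nuclease) and 880. Of the 22, 8 were past the threshold in both replicates, 6 in replicate 1 only, 3 in replicate 2 only and 5 in neither.

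The strongest of them was eIF6, which keeps the large subunit from joining the small one too early, with a signal of 880 and a summit 112 bp upstream, rank 9 of the 4606 peaks. After Ns2 and l(3)72Dn came CG1785 (185), for which the reference gives no role. Further down were CG13097 (119), also without a role in the reference, and U3-55K (111), a protein of the U3 snoRNP. RpLP0-like had 110, NHP2 of the box H/ACA particles 106 and the exosome gene Csl4 104. CG5033, the fly BOP1, had 102 and Sbds, which helps to release eIF6, had 100. Genes with no summit within 500 bp included, in alphabetical order, Bka, CG11583, CG11837, CG11920, CG2875 and CG2972. In this list the peak was nearest to the gene's own start in 10 of 22 genes (45.5%), against 78.2% of all genes with a summit there; among the 10 genes it was 3 of 4.

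By role, a summit within 500 bp was found at 2 of 5 GTPases (Ns2 and Ns4) and 2 of 4 box H/ACA genes (Nop60B and NHP2). In the box C/D group, where the snoRNP chaperone Nopp140 was counted, it was found at 2 of 5 (Nopp140 and Nop56). It was found at 7 of 18 genes of large subunit processing, 2 of 9 of the small subunit processome, 2 of 9 of small subunit maturation and 2 of 11 of the exosome. Of 7 genes grouped as other nucleolar, 0 had one. Bka was counted there by the list, although the reference used here annotates no role for it. Of 6 further genes with no role in the reference, 3 had one. No role group was bound throughout, and the groups are too small for their shares to be ordered.

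**Figure D5:**
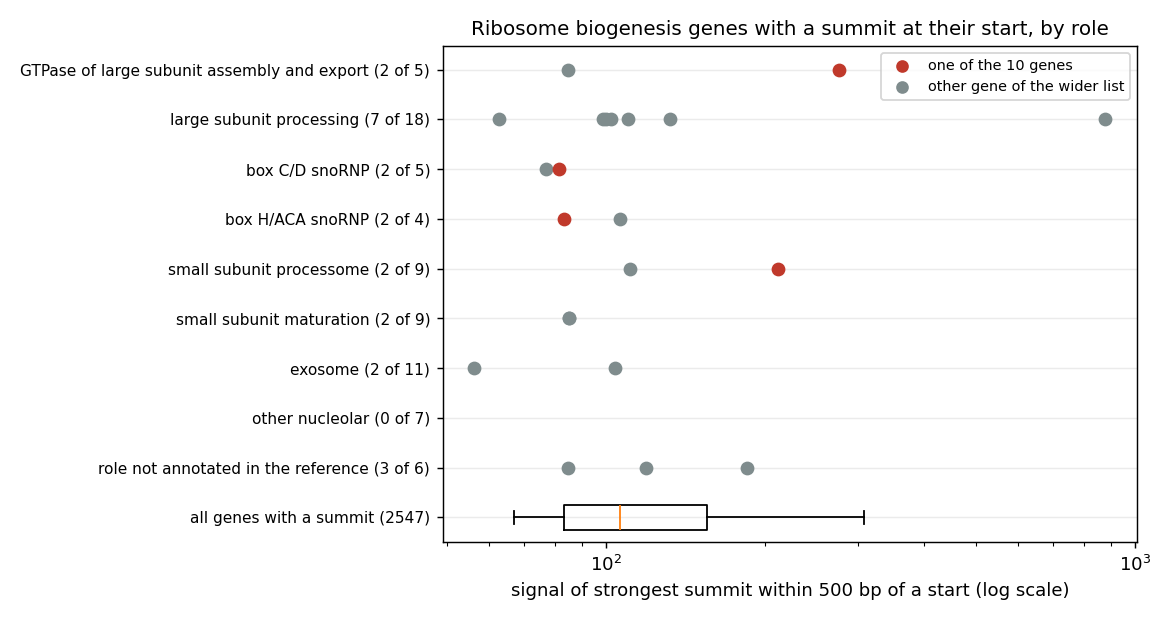
Signal (log scale, peak caller's unit) of the strongest summit within 500 bp of a start for the 22 ribosome biogenesis genes that have one, in rows by role with the number of such genes out of all in the group, and the 10 genes described here in red. The box for all 2547 genes with a summit shows quartiles, with whiskers at the 5th and 95th percentiles; eIF6 (880), Ns2 (276) and l(3)72Dn (211) are the 3 highest points.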

How the data were processed

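ChIP-seq peak lists of 2 replicates and of the series, on dm6, were used. Per the file descriptions, the authors derived them from aligned reads and a control; no aligner or peak caller is named in the sources used here. The score in the deposited lists is the IDR rescaled (830 or more is an IDR of 0.01 or less), the signal deposited by the authors is peak strength in an unstated unit, and the deposited ranked lists give the IDR as its −log10. Signal was compared within a list only, or between replicates as a ratio set against all peaks. Ranked regions past the score but missing from the series list numbered 172, of which 0 lay within 2000 bp of the 10 genes. Summits were assigned to Ensembl release 115 (BDGP6 version 6.54) starts, and RefSeq Release 6 sequence was searched, with Python 3.11.15, numpy 2.4.6, pandas 2.3.3 and matplotlib 3.10.9. Regions were shared at an overlap of 1 bp or more. The assignment was tested on simulated data. The 10 genes, lists and words were chosen with earlier results of these data known, so no test was run and no p is given. Named were the 10 genes, genes within 500 bp of their strongest peaks, and of the wider list the 12 strongest with a summit (1 of which is not reported here) and 6 without; genes nearest to other peaks, Ns4, Nop56 and Rrp6 were named after their values were seen. Alternatives were other lists, windows, start rules and overlap rules.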

Additional observations from a re-analysis of the deposited data

How the results depend on the processing

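The count of 5 genes with a summit within 2000 bp held with the outermost start, with ranked regions past the score and at 1000 bp, and was 7 at 5000 bp against 39.5% of all genes. It was 3 in the conservative list (Ns2, Nop60B, l(3)72Dn) against 23.8%, 3 in the stronger 50% of peaks (Ns2, nop5, l(3)72Dn) against 16.6%, and 3 when each peak went to its nearest start alone (Nopp140, Nop60B, l(3)72Dn) against 17.4%. Leaving out either replicate gave 3 (lowest 3, highest 3): Ns2, Nopp140 and l(3)72Dn without replicate 1, and Ns2, nop5 and l(3)72Dn without replicate 2, against 15.6% and 19.0%. Within 500 bp, 4 became 2 in the stronger 50% against 11.5%, and 2 to 3 without a replicate. The 22 genes of the wider list became 13 in the stronger 50% (17.6% against 11.5% of all genes), 11 without replicate 1 (14.9% against 10.7%) and 15 without replicate 2 (20.3% against 13.0%). By nearest start they became 10, which is 13.5% against 14.6% of all genes, so that the list no longer lay above the genome. The median signal of 121 became 211 in the conservative list and 211 in the stronger 50% (each over 3 genes), and 104 to 110 in single replicates, which have a scale of their own. Ns2 and l(3)72Dn stayed the genes past the threshold in both replicates under each of the 3 overlap rules. The E-box count of 9 (against 4.23% of all genes) was 2 in the 250 bp upstream alone, against 2.86%. It was 9 from the start to 100 bp downstream, against 1.83%, and 10 from −250 to +100 bp, against 4.67%. The windows that reach into the transcript were chosen after seeing the data. Of 39 alternatives, 24 left a value within its limits, 15 moved it and 0 reversed it. The wider list by nearest start, which fell below the share of all genes, was counted as moved. The cause of the moves was not tested. No paired analysis was possible because there is 1 group. Depth is unknown, so a gene without a peak may lie below what these libraries could detect.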
